A study of Arabidopsis thaliana with 9 samples.

Results

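The transcripts described here belong to 43 loci of Arabidopsis thaliana that build iron-sulfur (Fe-S) clusters or carry them to proteins, together with NEET, a small Fe-S protein. The members were chosen by locus from a fixed list: the plastid SUF genes, the mitochondrial ISC and export genes, the cytosolic CIA genes, the NFU and GRXS carriers and NEET. They hold 73 of the 55442 transcripts in the deposited tables and 43 of the 34262 loci. RNA-seq was carried out on shoots of wild type Col-0 plants, with 3 samples in each of 3 conditions. Growth began with 14 days on iron-containing plates in every condition. Seedlings of the -Fe condition were next moved to iron-free plates for 3 days and to fresh iron-free plates for 24 h. Fe resupply seedlings shared those 3 iron-free days and ended with 24 h back on iron. Seedlings of the +Fe condition underwent both transfers too, always onto iron-containing plates. A shoot sample mixes many cell types, so fewer cells of a type and less RNA per cell cannot be told apart in it.

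The files hold no column for a single sample. Each of the 3 tables covers a pair of conditions and gives an average log2 CPM (a count scaled to the library's total) per transcript over the libraries of that pair. The level of each transcript in each condition was solved from these 3 averages, and a locus level is the sum over its transcripts. No standard deviation can be given for these levels, and no difference below was tested: the values describe the condition means, not their replicate error. The averages appear to cover 6 libraries per condition where the labels give 3 samples, so which libraries a mean covers is not known. A difference is log2(level + 1 CPM) of the first-named condition minus that of the second, and is called past the fold when its size is at least 1, that is, 2-fold. Counts past the fold cover members with a mean level over the 3 conditions of at least 2 CPM, and each is read against the share of all transcripts or loci past it. It is not stated whether edgeR was given reads or length-scaled values, so levels are compared only between conditions of the same gene. One input unit summed over a condition corresponds to 0.148 CPM in -Fe, 0.148 CPM in Fe resupply and 0.145 CPM in +Fe. Input units are a solved level times the fitted library sizes and were not observed as counts.

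Fe-S clusters are cofactors of iron and sulfide that carry electrons or hold an enzyme's active site. In leaves, photosystem I and the ferredoxins of the chloroplast, the respiratory complexes of the mitochondrion and enzymes of the cytosol and nucleus all depend on them. A cysteine desulfurase supplies the sulfur, a scaffold holds the nascent cluster and carrier proteins pass it on. Plastids do this with the SUF system and mitochondria with the ISC system, while the CIA system in the cytosol depends on a product exported from mitochondria.

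Of the 43 loci, 39 had a mean level of at least 2 CPM and 25 of at least 10 CPM. SUFE2 was detected below 2 CPM, and ISU2, ISU3 and AT2G36260 were at 0 in all conditions. Among the 73 transcripts, 42 had a mean level of at least 2 CPM, 17 were detected below that and 14 were at 0.

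NEET and SUFB had far lower levels in -Fe than in both other conditions, whereas no other gene of the plastid SUF system or its carriers was past the fold. The upstream sequences of these 2 genes are shown here beside those of SUFC and SUFD, which encode the other proteins of the scaffold that SUFB belongs to. Each line holds the 250 bases before the annotated gene start, 5′ to 3′ on the gene's strand, from RefSeq TAIR10.1, with capitals marking CANNTG (the E-box core, which bHLH proteins can bind).
NEET (chr5:21009097-21009346, plus strand): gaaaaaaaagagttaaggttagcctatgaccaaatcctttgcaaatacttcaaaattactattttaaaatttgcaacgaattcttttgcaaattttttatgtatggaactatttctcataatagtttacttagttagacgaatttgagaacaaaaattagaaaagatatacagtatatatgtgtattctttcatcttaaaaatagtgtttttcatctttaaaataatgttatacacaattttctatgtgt
SUFB (chr4:2429900-2430149, minus strand): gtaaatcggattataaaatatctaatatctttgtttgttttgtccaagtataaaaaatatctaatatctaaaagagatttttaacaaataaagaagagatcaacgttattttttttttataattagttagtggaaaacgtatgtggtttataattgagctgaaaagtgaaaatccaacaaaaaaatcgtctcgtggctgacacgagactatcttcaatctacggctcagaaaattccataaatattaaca
SUFC (chr3:3337447-3337696, minus strand): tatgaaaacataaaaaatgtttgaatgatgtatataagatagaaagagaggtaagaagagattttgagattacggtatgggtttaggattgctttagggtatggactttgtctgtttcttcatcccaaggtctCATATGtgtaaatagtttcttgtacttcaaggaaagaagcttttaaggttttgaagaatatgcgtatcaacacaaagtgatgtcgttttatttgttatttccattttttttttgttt
SUFD (chr1:11752191-11752440, minus strand): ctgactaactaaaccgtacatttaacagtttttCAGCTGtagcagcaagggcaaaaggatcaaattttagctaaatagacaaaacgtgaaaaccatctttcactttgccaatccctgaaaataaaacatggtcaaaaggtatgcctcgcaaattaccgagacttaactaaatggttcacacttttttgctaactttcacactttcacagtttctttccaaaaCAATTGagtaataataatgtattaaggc
The NEET and SUFB windows hold no CANNTG. SUFC has one, whose first base is at -117 from the gene start, and SUFD has them at -217 and -28. Across the members, 24 of 43 windows hold CANNTG, against 55.3% of 27443 windows of all genes. This search was added after the levels had been seen. The G-box CACGTG is in 3 of 43 member windows (NFU1, ISU2 and AT4G12130), against 6.49% of all windows. The further E-box CACTTG, or CAAGTG on the other strand, is in 5 of 43 (AE7, GRXS14, AT4G12130, MFDX2 and ATM3), against 9.39%. Both strands were read in each search, and CANNTG includes the other motifs. A missing match says only that these letters are not in this window.

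NEET (AT5G51720.1; chromosome 5, 21009347 to 21010345, plus strand, 2 exons) encodes an Fe-S protein of the CDGSH type, found in chloroplasts and mitochondria. Its level was 1.64 CPM in -Fe, 66.9 CPM in Fe resupply and 61.5 CPM in +Fe. The -Fe level was 2.66% of the +Fe level, and the Fe resupply level was 109% of it. On the log2 scale, the difference was -4.57 in -Fe vs +Fe, -4.69 in -Fe vs Fe resupply and 0.12 in Fe resupply vs +Fe. About 11.1 input units lay behind the -Fe level, 452 behind the Fe resupply level and 423 behind the +Fe level. Solved levels carry an error: some transcripts of at least 2 CPM came out below 0, down to -2.32% of their mean level. The mean level of NEET was 43.3 CPM, so the exact size of its -Fe level and percentage is uncertain. Among the 11235 loci with a mean level of at least 10 CPM, NEET ranked 1 from the lowest difference in -Fe vs +Fe, and its rank was 3 in -Fe vs Fe resupply. Among the 12272 single transcripts at that level, its ranks were 15 and 14. No other annotated gene overlaps it.

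SUFB (AT4G04770.1, named ABCI8 in RefSeq; chromosome 4, 2427686 to 2429899, minus strand, 2 exons) encodes a scaffold protein of the plastid SUF system. It was at 27.7 CPM in -Fe, 144 CPM in Fe resupply and 123 CPM in +Fe. The -Fe level was 22.5% of the +Fe level, and the Fe resupply level was 117% of it. The differences were -2.12 in -Fe vs +Fe, -2.34 in -Fe vs Fe resupply and 0.23 in Fe resupply vs +Fe. SUFB ranked 21 and 11 from the lowest among the same 11235 loci in the comparisons of -Fe with +Fe and with Fe resupply. Among the 12272 single transcripts its ranks were 99 and 66. An annotated gene on the opposite strand, AT4G04760, overlaps SUFB over 84 bases and was at 0 in all conditions. The SUFB-like gene ABCI9 (AT5G44316) was at 0 as well.

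**Figure D1:**
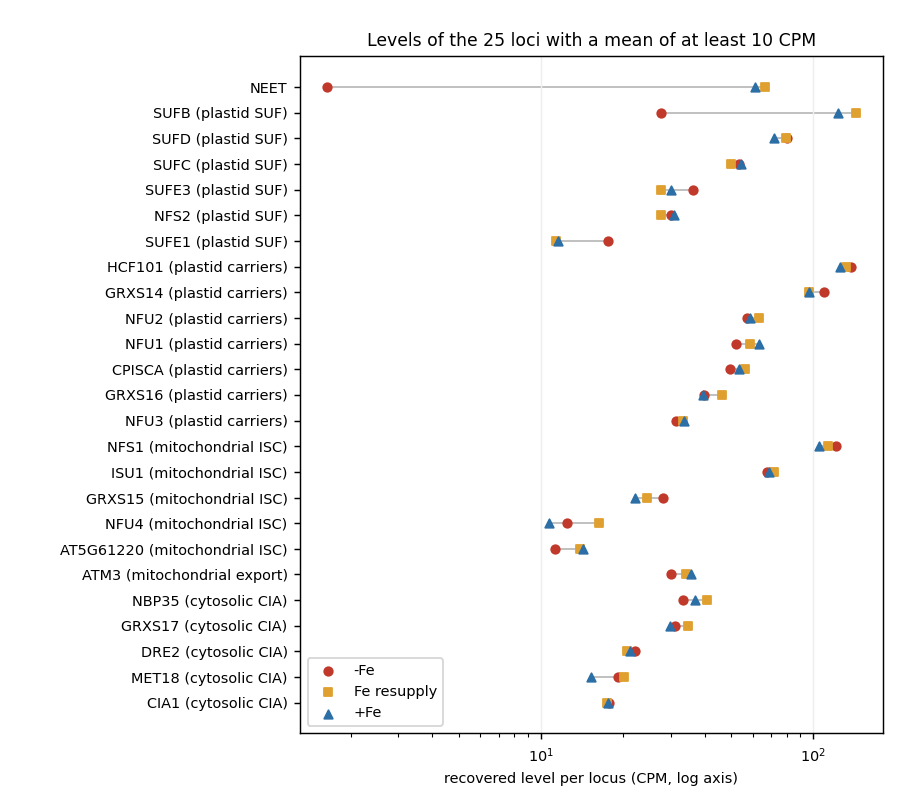
Recovered level (CPM, log axis) of the 25 loci with a mean level of at least 10 CPM in -Fe (circles), Fe resupply (squares) and +Fe (triangles), grouped by machinery; lines join the lowest and highest condition, and no error can be shown. NEET at 1.64 CPM and SUFB at 27.7 CPM in -Fe lie far left of their other points, while the marks of most other loci lie close together.

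A level in -Fe at least 4-fold below both other conditions was met by 13 of 11235 loci (0.116%) with a mean level of at least 10 CPM. NEET and SUFB were 2 of these, out of the 25 members at that level. On single transcripts the same pattern was met by 64 of 12272 (0.522%), with the same pair of members. The pattern was chosen after the levels of NEET and SUFB had been seen, so these shares are a description.

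In the rest of the SUF system, no gene was past the fold in -Fe vs +Fe. The differences ran from -0.036 (NFS2) to 0.57 (SUFE1), with 0.26 for SUFE3 and 0.43 for SUFE2. For all loci of at least 2 CPM, the median size of the difference was 0.21. SUFC, the ATPase of the scaffold complex (AT3G10670.1; chromosome 3, 3335004 to 3337446, minus strand), was at 53.5 CPM in -Fe, 49.9 CPM in Fe resupply and 54.3 CPM in +Fe. SUFD, the remaining scaffold protein (AT1G32500.1; chromosome 1, 11749798 to 11752190, minus strand), was at 80.2 CPM in -Fe, 79.4 CPM in Fe resupply and 71.8 CPM in +Fe. Their differences in -Fe vs +Fe were -0.022 for SUFC and 0.16 for SUFD. The difference of SUFB minus that of SUFC was -2.09, and the difference of SUFB minus that of SUFD was -2.27, for proteins that act in the same complex. These contrasts between genes were not tested.

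NFS2 (AT1G08490.1; chromosome 1, 2685659 to 2688658, minus strand), the plastid cysteine desulfurase that delivers the sulfur, was at 29.99 CPM in -Fe, 27.6 CPM in Fe resupply and 30.8 CPM in +Fe. SUFE1 (AT4G26500.1; chromosome 4, 13381714 to 13383641, minus strand), which activates NFS2, was at 17.6 CPM in -Fe, 11.4 CPM in Fe resupply and 11.5 CPM in +Fe. It differed by 0.57 in -Fe vs +Fe, and its difference was 0.59 in -Fe vs Fe resupply, the highest in both among the 23 loci of at least 10 CPM other than NEET and SUFB. All 1928 bases of SUFE1 lie within AT4G26510 on the opposite strand, which was at 35.0 CPM in -Fe, 56.3 CPM in Fe resupply and 52.7 CPM in +Fe. How reads were divided between these genes is not given in the sources used here, so the SUFE1 values are uncertain. SUFE3, the plastid quinolinate synthase with a SUFE domain, was at 36.4 CPM in -Fe, 27.7 CPM in Fe resupply and 30.2 CPM in +Fe. SUFE2, a further SUFE protein, was at 1.82 CPM in -Fe, 1.03 CPM in Fe resupply and 1.09 CPM in +Fe. The -Fe level was 153% of the +Fe level for SUFE1, 121% for SUFE3 and 167% for SUFE2, the last from only 12.3 input units in -Fe and 7.47 in +Fe.

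The plastid carriers take clusters from the scaffold to their target proteins. The differences of the 7 carrier loci in -Fe vs +Fe lay between -0.28 (NFU1) and 0.18 (GRXS14). HCF101, which is needed for photosystem I, was at 138 CPM in -Fe, 133 CPM in Fe resupply and 125 CPM in +Fe. Of the NFU carriers, NFU1 was at 52.1 CPM in -Fe, 58.6 CPM in Fe resupply and 63.6 CPM in +Fe. NFU2, summed over 2 transcripts, was at 57.2 CPM in -Fe, 63.2 CPM in Fe resupply and 58.8 CPM in +Fe. NFU3 was at 31.5 CPM in -Fe, 33.2 CPM in Fe resupply and 33.7 CPM in +Fe. The monothiol glutaredoxins GRXS14 and GRXS16 also bind clusters. GRXS14 was at 110 CPM in -Fe, 97.1 CPM in Fe resupply and 96.8 CPM in +Fe, and GRXS16 at 39.7 CPM in -Fe, 46.4 CPM in Fe resupply and 39.6 CPM in +Fe. CPISCA, the A-type carrier of the plastid, was at 49.6 CPM in -Fe, 56.4 CPM in Fe resupply and 53.5 CPM in +Fe. In Fe resupply vs +Fe the 7 loci lay between -0.11 (NFU1) and 0.22 (GRXS16).

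Counted over single transcripts, 4 of 42 members were past the fold in -Fe vs +Fe, against a background of 14% of all transcripts. NEET, SUFB and AT5G03905.1 were the 3 lower ones and AT4G32360.2 the higher one. In -Fe vs Fe resupply, 5 of 42 were past it, against 14.3% of all transcripts. NEET and SUFB were lower, and transcripts of GRXS15, ERV1 and AE7 were higher. In Fe resupply vs +Fe, AT4G32360.2 alone was past the fold, 1 of 42 against 12.6%. At this filter the members' share was below that of all transcripts in each comparison, but without a filter 8 of 73 (10.96%) were past the fold in -Fe vs +Fe, against 9.27% of all. The median difference of the 42 was 0.013 in -Fe vs +Fe, and that of all transcripts 0.00044. The median size of the difference was 0.24 for the 42, against 0.30 for all transcripts.

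Summed per locus, 3 of 39 loci, or 7.69%, were past the fold in -Fe vs +Fe (NEET, SUFB and MFDX2), against 4.9% of all loci. In -Fe vs Fe resupply there were 4 of 39, or 10.3% (NEET, SUFB, ERV1 and AE7), against 5.01%. Fe resupply vs +Fe had 1 of 39, or 2.56% (MFDX2), against 2.81%. At a mean level of at least 10 CPM, 2 of 25 loci, or 8%, were past it in -Fe vs +Fe, against 2.2% of all loci. The count was also 2 of 25, or 8%, in -Fe vs Fe resupply, against 2.21%. These were NEET and SUFB in both. In Fe resupply vs +Fe there were 0 of 25, against 0.561%. Single transcripts of at least 10 CPM gave 2 of 25, or 8%, in -Fe vs +Fe (6.89% of all transcripts). They gave 0 of 25 in Fe resupply vs +Fe (5.75%) and 2 of 25, or 8%, in -Fe vs Fe resupply (7.34%). The other 23 loci at this level lay between -0.32 (AT5G61220) and 0.57 (SUFE1) in -Fe vs +Fe, with a median of 0.0039.

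**Figure D2:**
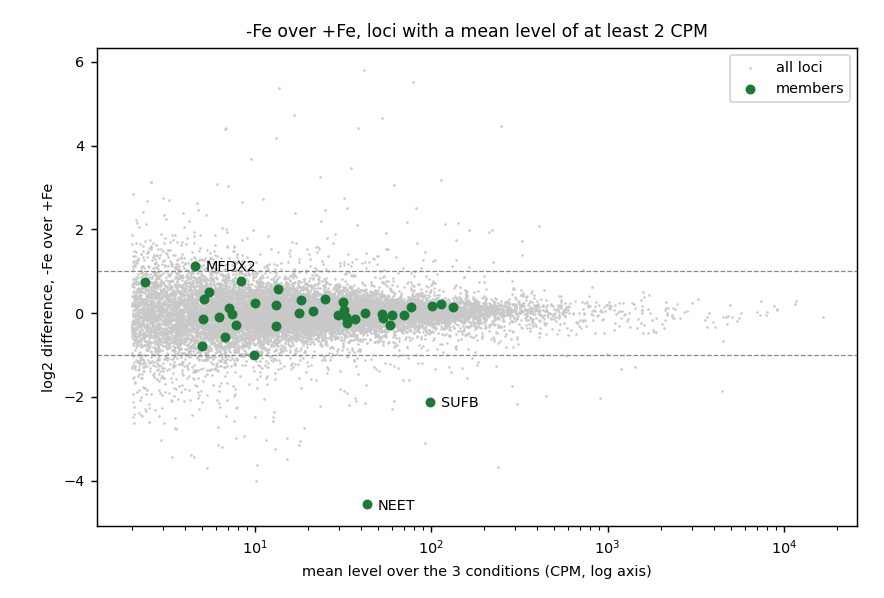
Log2 difference of -Fe over +Fe against the mean level over the 3 conditions (CPM, log axis) for all loci of at least 2 CPM (grey) and the 39 member loci (green); dashed lines mark a 2-fold difference. NEET at -4.57 and SUFB at -2.12 lie below the line, MFDX2 at 1.13 lies above it at a low level, and the other members lie between the lines.

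**Figure D3:**
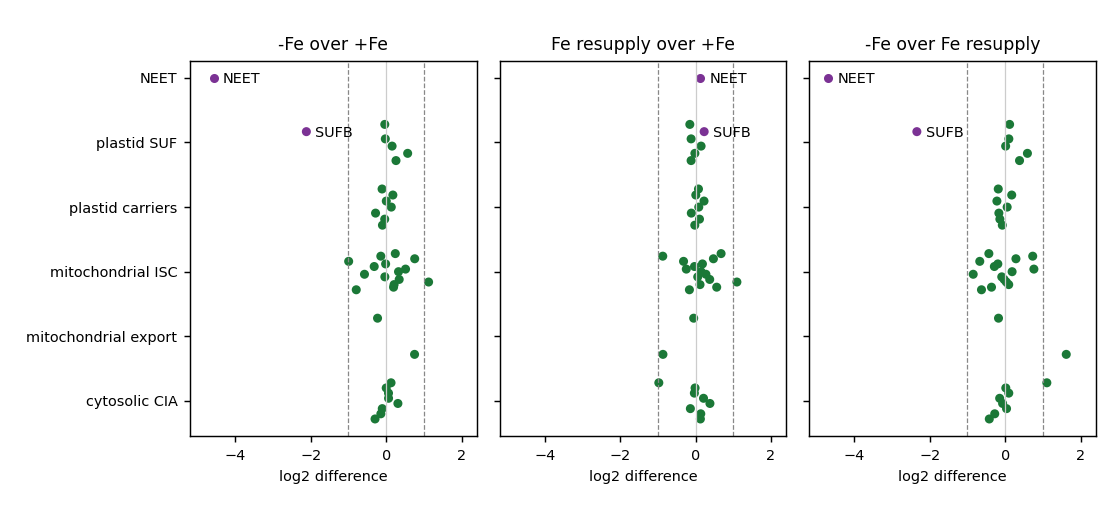
Log2 difference per locus for members of at least 2 CPM, by machinery, for -Fe over +Fe, Fe resupply over +Fe and -Fe over Fe resupply; each point is a locus and dashed lines mark a 2-fold difference. NEET and SUFB (purple) lie at -4.57 and -2.12 in the left panel and at 0.12 and 0.23 in the middle one.

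In mitochondria, the differences in -Fe vs +Fe were 0.21 for the desulfurase of the ISC system and -0.034 for its scaffold. NFS1, the cysteine desulfurase (AT5G65720.3; the other 2 transcripts were at 0), was at 122 CPM in -Fe, 114 CPM in Fe resupply and 105 CPM in +Fe. ISU1, the scaffold, was at 67.6 CPM in -Fe, 72.0 CPM in Fe resupply and 69.2 CPM in +Fe. AT5G61220, an LYR protein of the kind that partners the desulfurase, was at 11.3 CPM in -Fe, 13.9 CPM in Fe resupply and 14.3 CPM in +Fe. FH, or frataxin, was at 7.52 CPM in -Fe, 4.02 CPM in Fe resupply and 4.96 CPM in +Fe, from 50.8, 27.2 and 34.1 input units in the same order.

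The ferredoxin pathway supplies electrons to the scaffold. MFDX1 was at 5.55 CPM in -Fe, 5.68 CPM in Fe resupply and 4.16 CPM in +Fe. MFDX2 was at 5.84 CPM in -Fe, 5.69 CPM in Fe resupply and 2.13 CPM in +Fe, with a difference of 1.13 in -Fe vs +Fe and one of 1.09 after resupply, in Fe resupply vs +Fe. Only 14.7 input units lay behind its +Fe level. AT4G32360, annotated as a pyridine nucleotide-disulfide oxidoreductase and listed here as the ferredoxin reductase, was at 10.6 CPM in -Fe, 8.55 CPM in Fe resupply and 5.89 CPM in +Fe, a difference of 0.76 in -Fe vs +Fe. AT5G06410, a DNAJ-type co-chaperone, was at 6.96 CPM in -Fe, 8.10 CPM in Fe resupply and 7.03 CPM in +Fe.

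Most of the mitochondrial carriers had a mean level under 10 CPM. AT5G03905, of the A-type carrier family, was at 6.08 CPM in -Fe, 10.3 CPM in Fe resupply and 13.1 CPM in +Fe. Its main transcript AT5G03905.1 was at 5.20 CPM in -Fe, 9.06 CPM in Fe resupply and 11.6 CPM in +Fe. It differed by -1.02 in -Fe vs +Fe, just past the fold, and the locus sum by -0.99, just inside it. AT2G16710, of the same family, was at 9.29 CPM in -Fe, 12.9 CPM in Fe resupply and 7.70 CPM in +Fe, a difference of 0.67 in Fe resupply vs +Fe. NFU4 was at 12.5 CPM in -Fe, 16.3 CPM in Fe resupply and 10.7 CPM in +Fe, and NFU5 at 3.22 CPM in -Fe, 5.52 CPM in Fe resupply and 6.31 CPM in +Fe. INDH, which serves the assembly of respiratory complex I, was at 4.40 CPM in -Fe, 8.72 CPM in Fe resupply and 7.05 CPM in +Fe, a difference of -0.85 in -Fe vs Fe resupply. AT4G12130, of the glycine cleavage T-protein family, was at 5.72 CPM in -Fe, 3.05 CPM in Fe resupply and 6.41 CPM in +Fe, a difference of -0.87 in Fe resupply vs +Fe. GRXS15, the mitochondrial monothiol glutaredoxin, was at 28.1 CPM in -Fe, 24.6 CPM in Fe resupply and 22.2 CPM in +Fe.

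ATM3, the ABC transporter of the mitochondrial inner membrane that serves cytosolic assembly, was at 30.2 CPM in -Fe, 34.2 CPM in Fe resupply and 35.5 CPM in +Fe. ERV1, a sulfhydryl oxidase of the intermembrane space, was at 4.28 CPM in -Fe, 0.717 CPM in Fe resupply and 2.13 CPM in +Fe. Its main transcript AT1G49880.2 was at 3.48 CPM in -Fe, 0.717 CPM in Fe resupply and 2.13 CPM in +Fe. It differed by 1.38 in -Fe vs Fe resupply, with 4.85 input units behind the Fe resupply level.

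The cytosolic CIA genes lay between -0.29 (TAH18) and 0.31 (MET18) in -Fe vs +Fe, over 8 loci. NBP35, the scaffold, was at 33.4 CPM in -Fe, 40.7 CPM in Fe resupply and 36.9 CPM in +Fe. DRE2, which with TAH18 passes electrons to the assembly, was at 22.3 CPM in -Fe, 20.8 CPM in Fe resupply and 21.3 CPM in +Fe. TAH18 was at 6.43 CPM in -Fe, 8.94 CPM in Fe resupply and 8.11 CPM in +Fe. Of the proteins that bring clusters to their targets, CIA1 was at 17.8 CPM in -Fe, 17.5 CPM in Fe resupply and 17.7 CPM in +Fe. MET18 was at 19.3 CPM in -Fe, 20.2 CPM in Fe resupply and 15.3 CPM in +Fe, and NAR1 at 6.13 CPM in -Fe, 5.95 CPM in Fe resupply and 6.65 CPM in +Fe. AE7, which works with MET18 and CIA1, was at 9.21 CPM in -Fe, 3.74 CPM in Fe resupply and 8.33 CPM in +Fe. Its transcript AT1G68310.2 was at 9.21 CPM in -Fe, 3.31 CPM in Fe resupply and 7.35 CPM in +Fe. It differed by 1.25 in -Fe vs Fe resupply and by -0.95 in Fe resupply vs +Fe. GRXS17, the cytosolic monothiol glutaredoxin, was at 31.3 CPM in -Fe, 34.7 CPM in Fe resupply and 29.9 CPM in +Fe.

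Several of the members past the fold are single transcripts of loci whose sum stayed inside it. Of the 16 loci with several annotated transcripts, 12 had more than 1 detected. The assembler divides the reads of a locus among overlapping models, so these shares are uncertain. GRXS15 has AT3G15660.1 (6 exons) and AT3G15660.2 (7 exons). The second was at 10.3 CPM in -Fe, 2.41 CPM in Fe resupply and 5.37 CPM in +Fe, or 36.5%, 9.80% and 24.2% of the locus in that order. Its difference was 1.72 in -Fe vs Fe resupply, where the locus had 0.18. It differed by 0.82 in -Fe vs +Fe, and by -0.90 when Fe resupply was set against +Fe. AT4G32360.2 was at 3.63 CPM in -Fe, 4.23 CPM in Fe resupply and 0.818 CPM in +Fe, with a difference of 1.35 in -Fe vs +Fe and one of 1.52 after resupply, in Fe resupply vs +Fe. The locus has 9 transcripts, of which 6 were detected. AT4G32360.3 was at 5.92 CPM in -Fe, 2.51 CPM in Fe resupply and 3.27 CPM in +Fe, a difference of 0.70 in -Fe vs +Fe. AT4G32360.5 held 3.04% of it in -Fe, 0% in Fe resupply and 30.6% in +Fe.

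Of NFU4, AT3G20970.2 was at 0 in -Fe, 0.149 CPM in Fe resupply and 2.85 CPM in +Fe, while AT3G20970.1 was at 12.5 CPM in -Fe, 16.2 CPM in Fe resupply and 7.89 CPM in +Fe. The difference of AT3G20970.1 in Fe resupply vs +Fe was 0.95, and that of the locus 0.56. AT3G02280.1 of TAH18 held 38.6% of its locus in -Fe, 30.2% in Fe resupply and 0% in +Fe. AT4G21090.1 of MFDX2 held 23.7% of its locus in -Fe, 39.1% in Fe resupply and 0% in +Fe. In TAH18 and in MFDX2, a single other transcript made up the whole +Fe level. For MFDX2 this was AT4G21090.2, at 4.05 CPM in -Fe, 3.47 CPM in Fe resupply and 2.13 CPM in +Fe. It differed by 0.69 in -Fe vs +Fe and by 0.51 in Fe resupply vs +Fe. MFDX2 was thus past the fold only as a locus sum, with no transcript of at least 2 CPM past it.

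**Figure D4:**
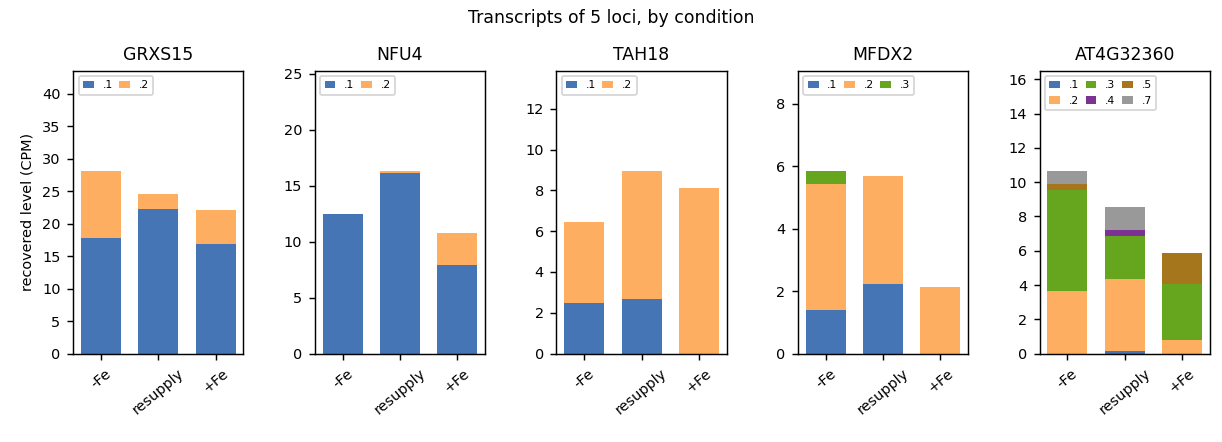
Recovered level (CPM) of the detected transcripts of 5 loci, stacked by condition, with -Fe, Fe resupply and +Fe from left to right and a separate axis for each locus; no error can be shown. The transcripts AT3G15660.2 of GRXS15 (10.3, 2.41 and 5.37 CPM) and AT4G32360.2 (3.63, 4.23 and 0.818 CPM) vary by a larger ratio than the height of their stacks.

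A further 11 loci of the pathway, which are not members, were measured for comparison. Of these, 3 were at 0 (ATM2, AT3G50845 and AT3G09380) and 8 had a mean level of at least 2 CPM. MIA40, a partner of ERV1 in protein import, was past the fold in -Fe vs +Fe at 10.4 CPM in -Fe, 8.15 CPM in Fe resupply and 4.20 CPM in +Fe, a difference of 1.13. That was 1 of 8 loci, against 4.9% of all loci of at least 2 CPM. Fe resupply vs +Fe had 0 of 8, against 2.81% of all loci. The last comparison, -Fe vs Fe resupply, also had 0 of 8, against 5.01%. Counted over single transcripts, 3 of 10 were past the fold in -Fe vs +Fe, against 14% of all transcripts. There were 0 of 10 in Fe resupply vs +Fe, against 12.6%, and 2 of 10 in -Fe vs Fe resupply, against 14.3%. Apart from MIA40, the transcripts past the fold belong to the single locus AT1G60990 and moved in opposite directions. AT1G60990.3 was at 3.05 CPM in -Fe, 20.7 CPM in Fe resupply and 13.2 CPM in +Fe, a difference of -1.81 in -Fe vs +Fe and one of -2.42 in -Fe vs Fe resupply. AT1G60990.1 was at 10.6 CPM in -Fe, 2.85 CPM in Fe resupply and 4.75 CPM in +Fe, and the locus sum differed by -0.28 in -Fe vs +Fe. The chaperones mtHsc70-1 and MTHSC70-2, the transporter ATM1, the GRXS partners BOLA1, BOLA2 and BOLA4 and the folate-binding protein AT1G60990 made up the rest, with differences in -Fe vs +Fe between -0.30 (BOLA1) and 0.14 (BOLA2).

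The iron status of the samples was read from 4 genes. FER1, which encodes the iron store ferritin, was at 11.6 CPM in -Fe, 158 CPM in Fe resupply and 106 CPM in +Fe, so that it too met the 4-fold pattern of NEET and SUFB. The iron deficiency regulators bHLH38, bHLH39 and bHLH100 were at 116 to 224 CPM in -Fe, 6.10 to 10.1 CPM in Fe resupply and 1.07 to 4.87 CPM in +Fe. The 4 shoot markers RBCS1A, RCA, CAB3 and CA1 were at 3221 to 12361 CPM in -Fe, 3072 to 11788 CPM in Fe resupply and 2735 to 10631 CPM in +Fe. Of 4 root markers, RHS19 and AT3G12900 were at 0 in all conditions. IRT1, the root iron transporter, was at 3.87 CPM in -Fe, 1.18 CPM in Fe resupply and 1.22 CPM in +Fe, and FRO2, the ferric reductase, at 2.72 CPM in -Fe and 0 in both other conditions. The part of root RNA in the results was not tested. The fitted effective library sizes lay between 920322 and 1342709. Each fit appeared to hold 12 libraries, 6 per condition, where the labels give 3 samples. This number was inferred from the averages, and what the further libraries were is not known.

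Annotated genes overlap 15 of the 43 members, and 17 of these 18 overlaps are with a gene on the opposite strand. Whether reads were counted by strand is not given in the sources used here, so the reads of such pairs may not have been told apart. Beside SUFE1 and SUFB, the pairs include NFU5 with AT1G51400, which was at 634 CPM in -Fe, 738 CPM in Fe resupply and 715 CPM in +Fe and shares 72 bases with NFU5. AT5G03905 shares 197 bases with AT5G03910 on the opposite strand, so its values are uncertain too. AT5G03910 was at 28.4 CPM in -Fe, 28.7 CPM in Fe resupply and 27.4 CPM in +Fe.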

How the data were processed

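RNA was extracted from shoots and sequenced as paired-end libraries. Per the study's methods and processing notes, the authors trimmed reads with Trimmomatic 0.36.5, mapped them to TAIR10 with HISAT2 2.1.0, assembled and quantified transcripts with StringTie 1.3.3.2 and compared conditions with edgeR 3.20.7.2 on Galaxy. The authors deposited 3 tables, 1 per pair of conditions, each with the average log2 CPM of 55442 transcripts. Their other columns (the authors' log2 fold change, F, p-value and adjusted p-value) were not used. No column of another series was found (0 left out).

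The average was modelled as a negative binomial fit of 1 group with a prior count of 2. Transcripts with 1 count in 1 library gave the library sizes and the dispersion (0.909, 0.903 and 0.904), and the 3 averages were then solved for the 3 condition levels after library sizes were matched between tables. Levels under 0.05 CPM were set to 0. Of 21390 transcripts with a mean of at least 2 CPM, 486 came out below 0 in a condition, the lowest at -2.32% of its mean level. The solving step was run on simulated data, built from the library sizes and the mean level of each transcript recovered here. In these data only the -Fe level of 200 transcripts of at least 10 CPM was changed. Averages were computed with the same model, but the simulated counts were less dispersed than the fitted dispersion. Such a run cannot show whether the authors' averages were made in this way. Sequencing depth per library is not given in the sources used here, and the effective sizes in the text are fitted values. Differences used a pseudocount of 1 CPM, which understates the change of low genes. Python 3.11.15, numpy 2.4.6, pandas 2.3.3 and scipy 1.17.1 were used. Alternatives were the pseudocount, the filter, the fold, locus sums, the weighting of conditions and the rescaling.

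Members and lists were chosen with earlier results of these data known. Every listed locus was named, with full values for NEET, the core SUF genes, every transcript past the fold and the 3 largest differences in each direction. Coordinates and promoters are from RefSeq TAIR10.1, which has all 73 member transcripts; no positions are in the tables and nothing was converted.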

Additional observations from a re-analysis of the deposited data

How the results depend on the processing

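NEET and SUFB were past the fold under all 8 alternatives in both comparisons that involve -Fe. The filters, the lower fold and, with 1 transcript per gene, the locus sums could not change this. Only the pseudocounts, the weighting and the rescaling moved these values. In -Fe vs +Fe, NEET ranged from -4.86 to -3.54 and SUFB from -2.14 to -2.01. The counts over all member transcripts moved more. A pseudocount of 4 CPM left 2 of 42 past the fold for -Fe vs +Fe (7.30% of all transcripts), 0 for Fe resupply vs +Fe (6.55%) and 3 for -Fe vs Fe resupply (7.50%). A pseudocount of 0.5 CPM gave 4 for Fe resupply vs +Fe (14.3%). With no filter on low levels, -Fe vs +Fe had 8 of 73, or 10.96%, and Fe resupply vs +Fe also had 8; these shares were above the 9.27% and 8.61% of all transcripts. A mean level of at least 10 CPM left 2 of 25, or 8.0%, for -Fe vs +Fe (6.89% of all), 0 for Fe resupply vs +Fe (5.75%) and 2 for -Fe vs Fe resupply (7.34%). A 1.5-fold threshold gave 10, 7 and 12 of 42, listed in that same order, which is 23.8%, 16.7% and 28.6% against 27.95%, 25.7% and 29.0% of all. Omitting the rescaling between tables gave 2 for Fe resupply vs +Fe (13.0%). Of 90 values of single transcripts under the alternatives, 80 kept their side of the threshold, 10 fell inside it and 0 changed direction. In each comparison they cover only NEET, SUFB and the transcripts already past the fold, so new crossings by other members were not counted. Transcripts under 10 CPM have no value at the filter of 10 CPM. Many of the 80 could not change side, because the filters and the lower fold leave a value as it is. Those that fell inside belong to AT4G32360, AT5G03905, ERV1, AE7 and GRXS15. ERV1 (0.665) and AE7 (0.854) did so only at the pseudocount of 4 CPM, in -Fe vs Fe resupply. GRXS15 (0.184, same comparison) did so only on the locus sum, and AT4G32360 and AT5G03905 under both settings. AT5G03905 also fell inside without the rescaling, at -0.9998 in -Fe vs +Fe. The cause was not tested. No paired analysis was possible because the tables have no columns for single samples, and for the same reason no replicate could be left out and no replicate error given. Low levels limit what can be said of members under 10 CPM, where a few input units move a level.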
